A study of Mus musculus with 67 samples.

Results

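Goblet cells are the mucus-secreting cells of the intestinal epithelium, and 9 genes that mark them were followed here across bulk RNA-seq of mouse small intestinal organoids and crypts: Muc2, Tff3, Agr2, Spdef, Fcgbp, Clca1, Zg16, Spink4 and Creb3l1. They were taken by name from a table of 29579 genes, and all 9 are listed in it. Goblet cells descend from secretory progenitors that the transcription factor Atoh1 specifies, and they pack large glycosylated mucins into granules released at the apical surface. The mucus gel is built from the mucin Muc2, which needs extensive folding in the endoplasmic reticulum before it is secreted. The 9 comprise gel components and their processing enzymes (Muc2, Fcgbp, Clca1, Zg16), small secreted peptides (Tff3, Spink4), a folding enzyme of the endoplasmic reticulum (Agr2) and transcription factors (Spdef, Creb3l1).

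The study compared a conventional organoid medium with one designed to give organoids with features of injury repair, and then tested its main compounds in irradiated mice. Organoids came from crypts of the proximal small intestine of mice aged 6 to 12 weeks. The ENR condition (EGF 50 ng/mL, noggin 100 ng/mL and R-Spondin1 500 ng/mL) and the 8C condition had 7 organoid libraries each. The 8C medium holds 8 components: valproic acid (VPA, a histone deacetylase inhibitor, 500 µM), EPZ6438 (which blocks EZH2, a histone H3 methyltransferase, 2 µM), LDN193189 (a BMP receptor inhibitor, 0.2 µM), GSK-3 inhibitor XV (0.1 µM), Pexmetinib (a kinase inhibitor, 1 µM), EGF (50 ng/mL), bFGF (20 ng/mL) and R-Spondin1 conditioned medium (10%). Other organoids had the same medium without both VPA and EPZ6438 (8C-VE, 7 libraries), without VPA (8C-V, 6), without EPZ6438 (8C-E, 7), or without EGF (8C-EGF), Pexmetinib (8C-Pex), the GSK-3 inhibitor (8C-GSK3i) or bFGF (8C-bFGF), with 3 libraries each. A further 3 libraries had VPA and EPZ6438 added to ENR (ENR+VE), at doses that the labels do not give. Small intestinal crypts were taken from unirradiated mice (Normal) and 1, 2, 3 and 5 days after irradiation at 12 Gy of female mice aged 8 weeks, without drug (IR) or with EPZ6438 at 0.6 mg/kg and VPA at 40 mg/kg given daily by gavage (IR+VE), with 2 libraries a group. VPA and EPZ6438 are absent from both the IR and the Normal groups, and no group has the drugs without irradiation.

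On mm10 with the GENCODE annotation, all 9 are protein-coding genes. Muc2 lies at chr7:141690340-141754693, Fcgbp at chr7:28071236-28120862, Agr2 at chr12:35992907-36004087 and Spink4 at chr4:40920052-40931395, each on the forward strand. Tff3 lies at chr17:31125306-31129646, Spdef at chr17:27714352-27728955, Clca1 at chr3:145003817-145032776, Zg16 at chr7:127050156-127087328 and Creb3l1 at chr2:91982328-92024502, each on the reverse strand. The span of Zg16 overlaps 2 non-coding genes of the opposite strand, Gm44939 and Gm22747. Overlap of exons was not examined, and the sources used here do not say that the counting used strand. Whether reads of these genes entered the values of Zg16 is therefore not known. The transcript of Fcgbp aligned to that of 9530053A07Rik at 86.2% identity over 5890 bases, and whether reads were shared between these genes was not tested. No other member had an alignment of at least 75 bases to another gene.

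RefSeq start-site windows (GRCm38.p6, 250 bases before to 50 bases after the start, 300 in all) were matched for 4 of the 9 genes, and they are shown because the 4 genes did not move alike across the media: Muc2, Fcgbp and Spdef fell in the 8C condition against ENR and Agr2 did not. The windows, 5′ to 3′ along the gene, are chr7:141690090-141690389 forward (Muc2), chr7:28070986-28071285 forward (Fcgbp), chr12:35992675-35992974 forward (Agr2) and chr17:27728902-27729201 reverse (Spdef). Capitals mark matches, on either strand, to the 6 motifs searched.
Muc2: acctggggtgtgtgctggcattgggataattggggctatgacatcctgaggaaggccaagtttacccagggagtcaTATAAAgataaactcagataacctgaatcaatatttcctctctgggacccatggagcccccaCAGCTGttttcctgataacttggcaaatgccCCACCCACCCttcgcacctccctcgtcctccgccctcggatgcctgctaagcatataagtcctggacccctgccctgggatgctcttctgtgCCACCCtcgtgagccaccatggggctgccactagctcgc
Fcgbp: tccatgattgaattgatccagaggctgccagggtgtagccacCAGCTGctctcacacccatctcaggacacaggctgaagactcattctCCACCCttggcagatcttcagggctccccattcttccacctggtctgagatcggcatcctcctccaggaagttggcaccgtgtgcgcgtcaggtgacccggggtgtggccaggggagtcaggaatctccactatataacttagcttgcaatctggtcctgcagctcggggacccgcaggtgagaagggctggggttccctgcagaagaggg
Agr2: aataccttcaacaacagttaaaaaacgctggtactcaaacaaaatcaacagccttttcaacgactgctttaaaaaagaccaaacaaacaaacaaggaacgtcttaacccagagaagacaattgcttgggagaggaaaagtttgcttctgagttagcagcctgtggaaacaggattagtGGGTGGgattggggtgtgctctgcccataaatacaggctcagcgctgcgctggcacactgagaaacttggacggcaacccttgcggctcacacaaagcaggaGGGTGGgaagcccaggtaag
Spdef: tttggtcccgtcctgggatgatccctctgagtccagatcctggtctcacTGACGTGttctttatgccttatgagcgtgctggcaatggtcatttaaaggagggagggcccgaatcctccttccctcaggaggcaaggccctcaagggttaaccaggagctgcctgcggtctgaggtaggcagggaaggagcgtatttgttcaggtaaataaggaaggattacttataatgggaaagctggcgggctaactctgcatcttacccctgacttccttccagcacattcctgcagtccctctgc
The E-box CAGCTG, a form of the site that basic helix-loop-helix factors such as Atoh1 bind, stood in the Muc2 window 112 bases and in the Fcgbp window 208 bases before the start, and 16.3% of all 32851 windows hold it. CCACCC, a site of KLF factors, was in the Muc2, Fcgbp and Agr2 windows (in Agr2 as its reverse complement) and in 31.5% of all windows, and 2 of its 3 matches in Muc2 overlap. TGACGTG, a CRE-like site, was in the Spdef window 201 bases before the start and in 2.01% of all windows. TATAAA was in the Muc2 window 174 bases before the start and in 13.6% of all windows. The forkhead site TGTTTAC (3.65% of all windows) and the endoplasmic reticulum stress element ERSE (0.119%) were in none of the 4. These matches describe letters only and say nothing of binding.

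Values are TPM as deposited, a share of each library's transcripts per gene length. TPM keeps no read depth, which is unknown here. The listed genes summed to 983801 to 988144 TPM in organoid libraries and 819346 to 910935 in crypt libraries, and mitochondrially encoded genes held 1.52% to 6.64% and 10.6% to 48.4% of these sums, so levels are not compared between organoids and crypts. Markers of epithelium were high in all 67 libraries, while those of immune cells summed to at most 5.30 TPM and those of stroma and muscle to at most 6.11 TPM in organoids. The labels do not say what the replicate numbers stand for, so p-values measure only the spread between these samples. Organoid replicates 1 to 3 and 4 to 6 of the same condition differed widely, as given below, and the conditions with 3 libraries hold only numbers 1 to 3, which does not show that they match those numbers of 8C or ENR. In the order of the deposited columns, ENR+VE stands among replicates 1 to 3 of the other conditions. 8C-EGF, 8C-Pex, 8C-GSK3i and 8C-bFGF stand among replicates 4 to 6 of 8C and ENR. The labels do not say what this order stands for. A change is the log2 fold change of TPM + 1 ± its standard error, and a gene was called where limma's adjusted p over all genes tested was under 0.05 and the change was at least 2-fold. In bulk samples, fewer goblet cells and less RNA per goblet cell cannot be told apart.

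All 9 genes were above 0 in every library and passed the filter of a mean of 1 TPM in every comparison. In organoids Zg16, a lectin-like protein that binds bacteria in mucus, varied most, from 1.02 to 360.1 TPM over the 49 libraries. Clca1, a mucus-processing metalloprotease, followed with 1.47 to 187 TPM. The narrowest ranges were those of Spink4, a Kazal-type peptide (946 to 3459 TPM), and Agr2 (269 to 997 TPM), followed by Tff3, a trefoil peptide of the mucus (711 to 3232 TPM).

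The order of the 10 organoid conditions, by mean log2(TPM + 1), is given with each mean TPM ± SD. For Muc2, the gel-forming mucin, it was ENR (57.2 ± 20.5), 8C-Pex (54.0 ± 11.6), ENR+VE (51.9 ± 18.9), 8C-VE (47.7 ± 24.8), 8C-V (43.8 ± 11.3), 8C-GSK3i (38.4 ± 2.90), 8C-bFGF (16.3 ± 5.34), 8C (15.7 ± 3.44), 8C-E (14.6 ± 9.95) and 8C-EGF (8.03 ± 1.90). For Fcgbp, a large protein of the mucus gel, it was ENR (503 ± 133), ENR+VE (486 ± 137), 8C-VE (321 ± 62.5), 8C-Pex (302 ± 45.6), 8C-V (221 ± 32.2), 8C-GSK3i (188 ± 15.2), 8C-bFGF (145 ± 41.5), 8C (144 ± 49.3), 8C-E (134 ± 34.1) and 8C-EGF (77.9 ± 5.27). The mucin and its partner protein thus had ENR at the top and 8C-EGF at the bottom. For Clca1 the order was ENR+VE (72.4 ± 17.6), 8C-VE (68.9 ± 63.5), ENR (43.5 ± 14.9), 8C-V (56.8 ± 54.6), 8C-Pex (35.5 ± 36.5), 8C-GSK3i (14.7 ± 9.57), 8C-E (14.0 ± 20.4), 8C (8.47 ± 6.06), 8C-bFGF (7.68 ± 7.67) and 8C-EGF (3.30 ± 1.01). For Zg16 it was ENR+VE (219 ± 33.7), ENR (174 ± 49.8), 8C-VE (122 ± 111), 8C-V (114 ± 116), 8C-Pex (69.5 ± 71.4), 8C-GSK3i (37.6 ± 17.7), 8C-E (22.2 ± 30.8), 8C (11.3 ± 10.98), 8C-bFGF (5.86 ± 6.22) and 8C-EGF (3.54 ± 1.67). These genes had ENR+VE at the top and 8C-EGF at the bottom. For Tff3 the order was 8C-Pex (2666 ± 537), ENR (2081 ± 546), ENR+VE (1859.9 ± 269), 8C-V (1979 ± 791), 8C-VE (1772 ± 717), 8C-GSK3i (1424 ± 76.6), 8C-bFGF (1363 ± 40.5), 8C (1284 ± 295), 8C-EGF (1199 ± 49.8) and 8C-E (1264 ± 525.6). For Spink4 it was 8C-Pex (2988 ± 581), 8C-V (2124 ± 314), ENR (2149 ± 539), 8C-VE (2139 ± 745), 8C-GSK3i (1945 ± 76.5), ENR+VE (1619 ± 211), 8C-E (1609.5 ± 667), 8C (1504 ± 376), 8C-EGF (1449 ± 51.1) and 8C-bFGF (1440.4 ± 64.9). Both peptides were highest in 8C-Pex. For Agr2, a protein disulfide isomerase needed for Muc2 production, the order was 8C-Pex (909.8 ± 96.1), 8C-V (809 ± 42.9), 8C-GSK3i (801 ± 30.1), 8C-VE (714 ± 173), 8C (645 ± 63.8), 8C-bFGF (624 ± 48.1), 8C-E (558 ± 182), ENR+VE (519 ± 26.1), ENR (466.2 ± 43.9) and 8C-EGF (310.1 ± 49.1). It had ENR next to the bottom. For Spdef, an ETS transcription factor of goblet cell maturation, it was ENR+VE (33.4 ± 1.09), ENR (33.3 ± 5.31), 8C-VE (31.95 ± 8.57), 8C-V (30.0 ± 9.09), 8C-Pex (22.9 ± 4.04), 8C-GSK3i (15.8 ± 1.75), 8C-E (15.8 ± 3.13), 8C (16.7 ± 10.7), 8C-EGF (9.01 ± 1.09) and 8C-bFGF (8.498 ± 1.25). For Creb3l1, a membrane-bound bZIP factor of the endoplasmic reticulum, it was 8C-VE (84.3 ± 40.03), 8C-V (70.9 ± 22.6), 8C-E (73.5 ± 34.9), ENR (54.4 ± 17.1), ENR+VE (41.4 ± 4.20), 8C (43.7 ± 16.2), 8C-GSK3i (37.5 ± 6.95), 8C-Pex (34.3 ± 6.06), 8C-EGF (26.1 ± 5.99) and 8C-bFGF (25.3 ± 3.32), with 8C-VE at the top. Of the 81 neighbouring pairs in these orders, 2 differed at an adjusted p under 0.05 in a fit of all 10 conditions: Agr2 was higher in ENR than in 8C-EGF by 0.59 (adjusted p = 0.00375), and Fcgbp was higher in 8C-E than in 8C-EGF by 0.74 (adjusted p = 0.0194). The other 79 neighbouring pairs did not pass the test. With the replicate number as a block in the fit, 11 of the 81 pairs differed, so the number of neighbours told apart depends on that choice.

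**Figure D1:**
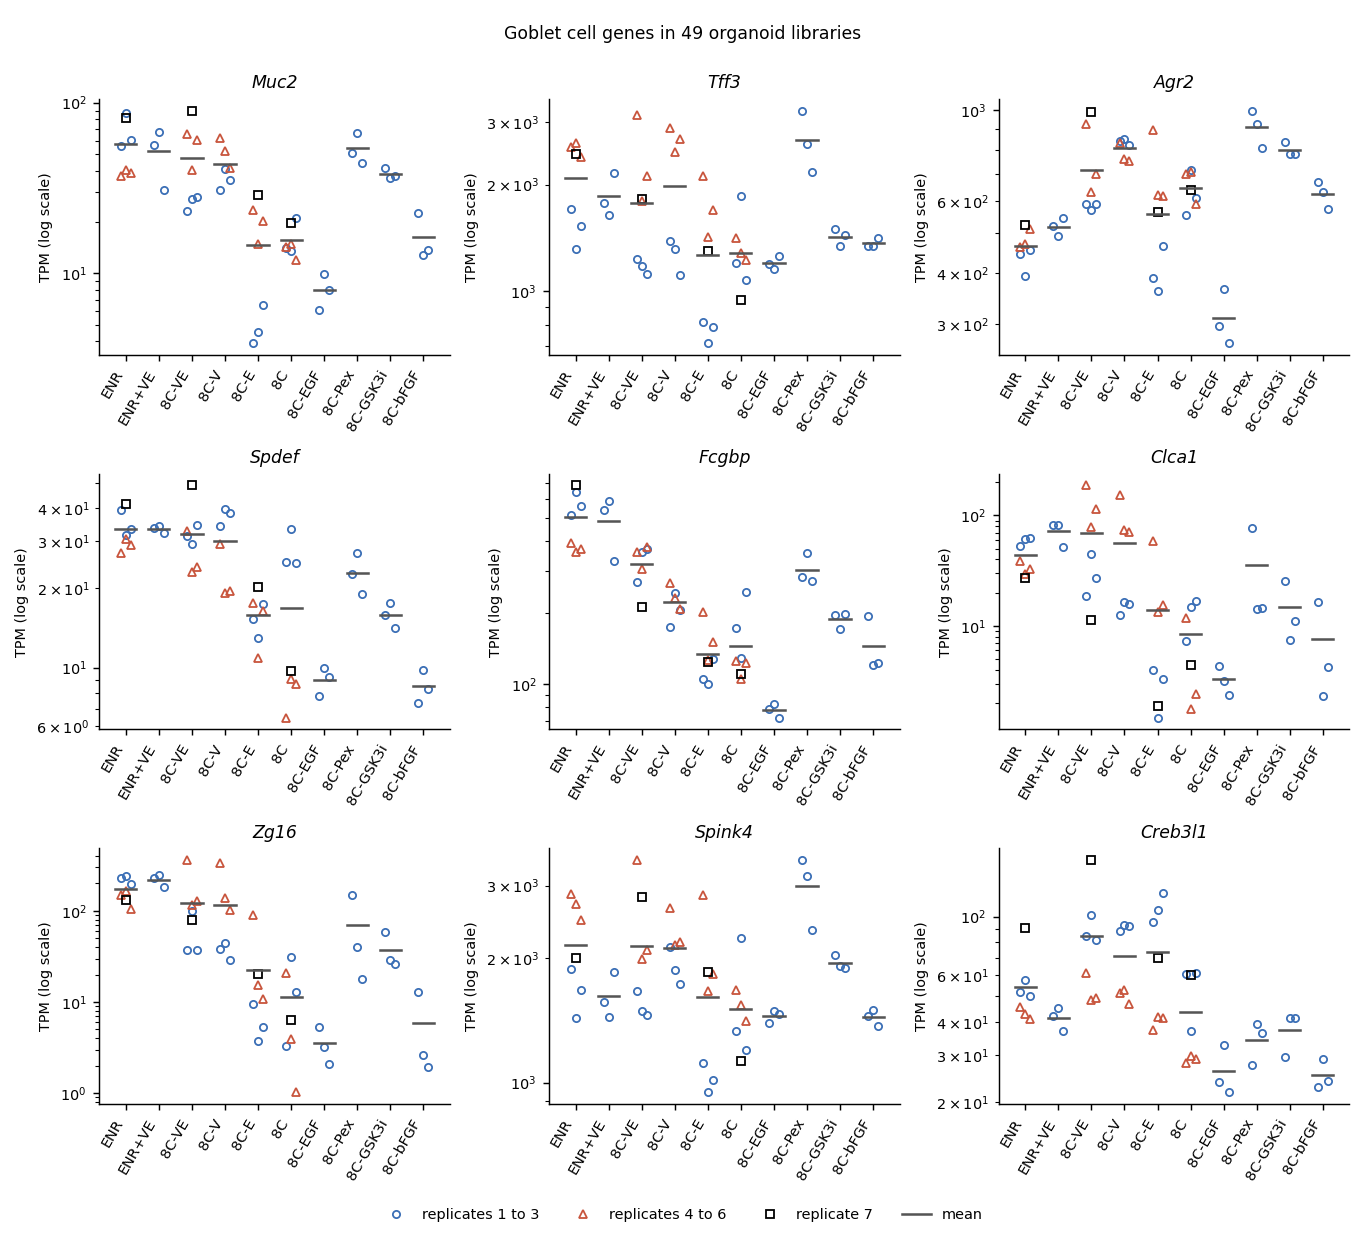
TPM (log scale) of the 9 goblet cell genes in each of 49 organoid libraries by condition; points are libraries, marked by replicate number, and grey bars are means. Zg16 and Clca1 span the widest range, and within 8C-V, 8C-E and 8C-VE the libraries numbered 4 to 6 lie above those numbered 1 to 3 for Clca1 and Zg16.

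The 8C and ENR conditions were compared first. Gel components fell in 8C: Muc2, Fcgbp, Clca1 and Zg16 and the factor Spdef were called lower, 5 of the 9 genes, whereas 3.31% of the 12665 genes tested were called lower (15.2% in either direction). None of the 9 was called higher. The median change of the 9 was -1.17, and that of all genes tested 0.08. Zg16 had lowest, median and highest values of 1.02, 6.41 and 30.8 TPM in 8C and 105, 165 and 239 in ENR (n = 7 each), a change of -4.32 ± 0.49, adjusted p = 3.03e-06, or 19.9-fold on the TPM + 1 scale. All 8C libraries lay below all ENR libraries. Clca1 stood at 1.76, 7.31 and 16.8 TPM in 8C and 27.2, 39.1 and 61.8 in ENR (-2.47 ± 0.40, adjusted p = 0.00011). Muc2 ran at 11.9, 14.3 and 21.2 TPM in 8C against 37.2, 55.5 and 87.4 in ENR (-1.75 ± 0.20, adjusted p = 3.57e-06). Fcgbp gave 105, 125 and 245 TPM in 8C and 361, 514 and 684 in ENR (-1.81 ± 0.20, adjusted p = 1.85e-06). The 8C and ENR ranges of Clca1, Muc2 and Fcgbp did not overlap either; with Zg16 and Agr2, 5 of the 9 genes had non-overlapping groups, against 17.3% of genes tested. Spdef had 6.46, 9.67 and 33.3 TPM in 8C and 27.2, 31.6 and 41.5 in ENR, a change of -1.17 ± 0.31, adjusted p = 0.00719. Its 8C libraries split, with replicates 1 to 3 at 25.1, 33.3 and 24.8 TPM, within or near the ENR range, and the others at 9.67 TPM or less. Without replicate 4 of 8C its change fell short of 2-fold (adjusted p = 0.0153).

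The secreted peptides and the folding enzyme changed less than 2-fold between these media. Tff3 had 942, 1226 and 1862 TPM in 8C and 1310.5, 2399 and 2624 in ENR (-0.68 ± 0.18, adjusted p = 0.0066). Spink4 had 1129, 1407 and 2242 and 1433, 2005 and 2860.5 TPM (-0.51 ± 0.17, adjusted p = 0.0307). Agr2 went the other way, with 553, 639 and 714 TPM in 8C and 393, 462 and 525 in ENR (0.47 ± 0.09, adjusted p = 0.0004), and its groups did not overlap. Creb3l1 did not pass the test (-0.34 ± 0.22, adjusted p = 0.266, 95% interval -0.82 to 0.13).

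The 8C base without VPA and EPZ6438 was then set against ENR. These media share EGF at the same dose and hold R-Spondin1 in different forms, noggin is in ENR alone, and LDN193189, the GSK-3 inhibitor, Pexmetinib and bFGF are in 8C-VE alone, so the comparison does not isolate single components. None of the 9 genes was called between 8C-VE and ENR, where 3.19% of 11990 genes were called. At an unadjusted p under 0.05 there were 3 of the 9 and 22.4% of all genes. Agr2 was again above ENR without overlap, with 572, 631 and 993 TPM in 8C-VE (0.59 ± 0.13, adjusted p = 0.00868); 3.42% of genes had groups that did not overlap. Fcgbp was below it, at 211, 359 and 377 TPM (-0.63 ± 0.17, adjusted p = 0.0316). Both changes were under 2-fold. The intervals for Clca1 (-0.91 to 1.24) and Zg16 (-1.71 to 0.01) were wide, and Zg16 was called lower without 8C-VE replicate 4 (-1.17, adjusted p = 0.0262). For Clca1 the sets of replicate numbers were opposed, at -1.01 (adjusted p = 0.0128) among replicates 1 to 3 and 1.79 (adjusted p = 0.00345) among replicates 4 to 6. Muc2 and Zg16 were called lower among replicates 1 to 3 only, as were 4.78% of all genes (-1.31, adjusted p = 0.000326 and -2.08, adjusted p = 0.00905), while replicates 4 to 6 gave 0.47 (adjusted p = 0.0807) and 0.35 (adjusted p = 0.566). The other changes, of Tff3, Spdef, Spink4 and Creb3l1, were -0.28 (Tff3) to 0.55 (Creb3l1), none called. The VPA and EPZ6438 effects follow, and they share the 8C and 8C-VE libraries with each other and with the comparisons above, so they are not independent.

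With both compounds added to the 8C base, 5 of the 9 genes were called lower in 8C than in 8C-VE, against 1.62% of 12622 genes called lower (10.7% in either direction). Zg16 had 36.8, 99.5 and 360.1 TPM in 8C-VE, above every 8C library (-3.47 ± 0.60, adjusted p = 0.00034). Muc2 had 23.2, 40.5 and 89.6 TPM in 8C-VE, also without overlap (-1.41 ± 0.27, adjusted p = 0.00086); 11% of genes had groups that did not overlap. Clca1 had 11.4, 44.9 and 187 TPM in 8C-VE, which overlapped the 8C range (-2.64 ± 0.59, adjusted p = 0.00316). Fcgbp and Spdef fell too (-1.18 ± 0.18, adjusted p = 0.000122 and -1.09 ± 0.32, adjusted p = 0.0209), with groups that overlapped. Creb3l1 differed by -0.90 ± 0.27, adjusted p = 0.0254, under 2-fold, and was called without 8C-VE replicate 5 or 6 (-1.01, adjusted p = 0.0158, and adjusted p = 0.0165). Tff3, Agr2 and Spink4 had changes of -0.47 (Spink4) to -0.12 (Agr2), none called. The call of Spdef was lost without replicate 4, 5 or 6 of 8C or replicate 7 of 8C-VE, with changes of -0.92 to -0.99.

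VPA alone, added to the base (8C-E against 8C-VE), gave 4 of the 9 genes lower, against 1.07% of 12238 genes called lower (4.18% in either direction). Muc2 had 3.901, 14.9 and 28.8 TPM in 8C-E (-1.79 ± 0.44, adjusted p = 0.0132). Fcgbp had 101, 126 and 201 TPM, all below the 8C-VE libraries (-1.27 ± 0.16, adjusted p = 6.77e-05). Spdef had 10.8, 16.4 and 20.2 TPM, also below all of them, with a change just short of 2-fold (-0.96 ± 0.17, adjusted p = 0.00106), and it was called without 8C-E replicate 7 or 8C-VE replicate 5 or 6 (-1.02 to -1.03); 5.21% of genes had groups that did not overlap. Zg16 had 3.73, 10.9 and 90.9 TPM (-2.72 ± 0.60, adjusted p = 0.00674), and Clca1 had 1.47, 4.01 and 58.5 TPM (-2.57 ± 0.73, adjusted p = 0.0323). In both, 8C-E replicate 4 was far above the other 8C-E libraries, at 90.9 and 58.5 TPM. No call was made for Tff3, Agr2, Spink4 or Creb3l1, with changes of -0.50 (Tff3) to -0.22 (Creb3l1). The adjusted p of Clca1 rose to 0.0539 to 0.075 without any one of 8 of the 14 libraries (8C-E replicates 1, 2, 3 and 7 and 8C-VE replicates 2, 4, 5 and 6). With the replicate number as a block, Clca1 gave -2.57 ± 0.26 (adjusted p = 8.86e-05). Tff3 (-0.50 ± 0.05, adjusted p = 2.34e-05) and Spink4 (-0.44 ± 0.06, adjusted p = 0.000258) stayed under 2-fold there, and Creb3l1 did not pass (adjusted p = 0.383). That the numbers pair these samples comes from the data, not the labels.

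EPZ6438 alone, added to the base (8C-V against 8C-VE), gave no call among the 9 genes, where 3.22% of 12263 genes were called. At an unadjusted p under 0.05 there was 1 of the 9, against 14.1% of all genes. That gene was Fcgbp (-0.52 ± 0.14, adjusted p = 0.0408), with 175, 219 and 266 TPM in 8C-V. The other 8 changes were -0.31 (Clca1) to 0.21 (Agr2). The interval of Muc2 was -0.64 to 0.63 and that of Zg16 -1.52 to 1.06, a range that holds 2-fold changes of Zg16 in both directions. With the replicate number as a block, a pairing seen in the data and not the labels, none was called either. Fcgbp (-0.62 ± 0.07, adjusted p = 7.15e-05), Clca1 (-0.63 ± 0.15, adjusted p = 0.0186) and Agr2 (0.30 ± 0.09, adjusted p = 0.0395) were under 2-fold. Zg16 (-0.27 ± 0.17, adjusted p = 0.278) and Muc2 (0.17 ± 0.14, adjusted p = 0.372) did not pass.

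Leaving a compound out of the full medium gave the same pair of comparisons from the other side. Without VPA (8C-V against 8C), 3 of the 9 genes were called higher, against 1.11% of 12723 genes (5.2% in either direction). Muc2 had 31.0, 41.2 and 61.7 TPM in 8C-V, above all 8C libraries (1.41 ± 0.17, adjusted p = 6.36e-05). Zg16 had 28.7, 73.8 and 335 TPM (3.24 ± 0.66, adjusted p = 0.00401), and Clca1 had 12.6, 43.3 and 153 TPM (2.33 ± 0.61, adjusted p = 0.0206). The ranges of Zg16 and Clca1 overlapped those of 8C. With the replicate number as a block, Clca1 was no longer called (2.25, adjusted p = 0.0572), and without 8C-V replicate 5 or 6 its adjusted p was 0.0529 or 0.0527. Agr2 lay at 751, 827 and 849 TPM in 8C-V, above all 8C libraries but by less than 2-fold (0.33 ± 0.08, adjusted p = 0.0171); 6.72% of genes did not overlap. Spdef was not called (0.98 ± 0.35, adjusted p = 0.0875), but was without 8C replicate 2 (1.18, adjusted p = 0.0273). Tff3, Fcgbp, Spink4 and Creb3l1 were not called either, at 0.52 (Spink4) to 0.71 (Creb3l1). Without EPZ6438 (8C-E against 8C), none of the 9 was called, against 4.2% of 12655 genes, and 1 of the 9 had an unadjusted p under 0.05 against 14.7% of all genes, Creb3l1 (0.67 ± 0.30, adjusted p = 0.287). Changes of the other 8 were -0.38 (Muc2) to 0.75 (Zg16). The interaction of VPA with EPZ6438 was not called for any of the 9, where 0.581% of 12556 genes were called, and 1 of the 9, Fcgbp, had an unadjusted p under 0.05 against 3.81% of all genes (0.61 ± 0.25, adjusted p = 0.832). The interaction values of the other 8 were -0.52 (Zg16) to 0.38 (Muc2). Within replicates 1 to 3 the interaction was called for 2.2% of all genes, among them Fcgbp (1.34, adjusted p = 0.0362), Clca1 (2.73, adjusted p = 0.0137) and Creb3l1 (-1.08, adjusted p = 0.0372). Within replicates 4 to 6 it was called for 2.39% of all genes and none of the 9, with Clca1 at -1.93 (adjusted p = 0.348). Muc2 gave 1.09 (adjusted p = 0.0661) in replicates 1 to 3 and -0.38 (adjusted p = 0.584) in replicates 4 to 6.

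**Figure D2:**
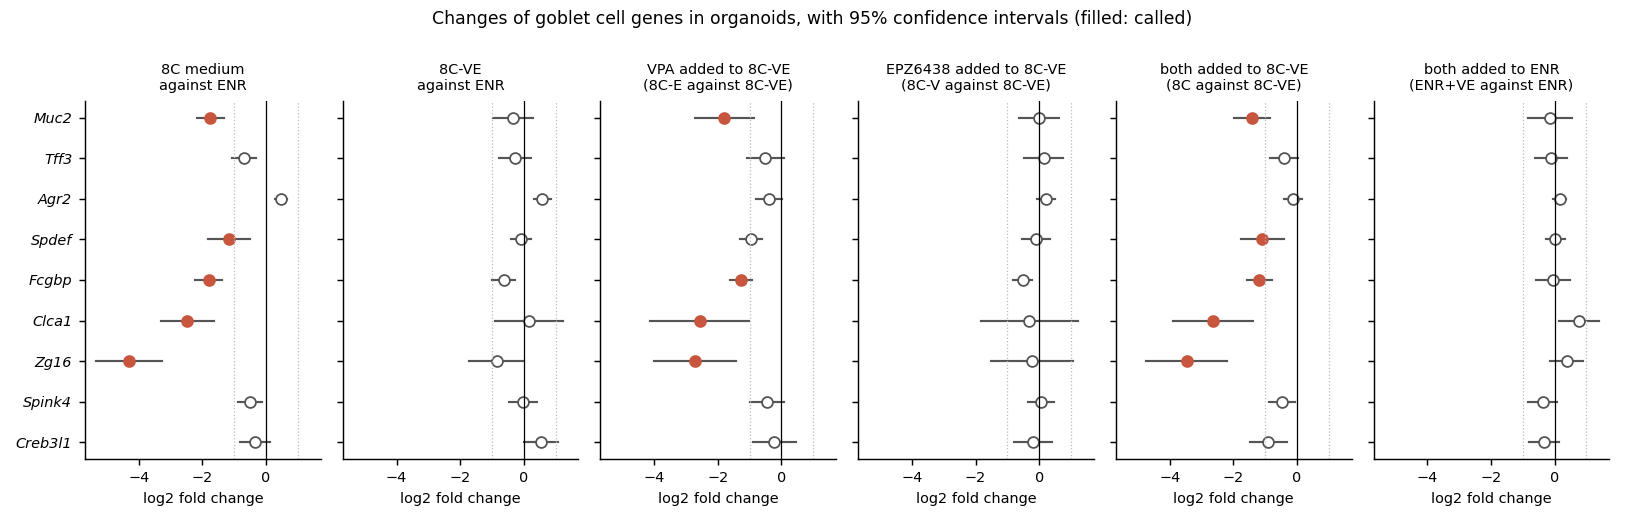
Log2 fold changes of TPM + 1 of the 9 goblet cell genes in 6 organoid comparisons, with 95% confidence intervals from limma; filled points were called and dotted lines mark 2-fold. Muc2, Fcgbp, Clca1 and Zg16 are filled below 0 in 8C against ENR, 8C-E against 8C-VE and 8C against 8C-VE, and no gene is filled in the panels for EPZ6438 alone or for ENR+VE.

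Within a condition, replicates 1 to 3 and 4 to 6 had ranges that did not overlap for 3 of the 9 genes in 8C, 7 in 8C-V, 7 in 8C-E, 7 in 8C-VE and all 9 in ENR, as did 35.1%, 60%, 54.4%, 61.4% and 65.9% of all genes tested. For Clca1, replicates 1 to 3 and 4 to 6 averaged 30.4 and 127 TPM in 8C-VE, 14.9 and 98.8 in 8C-V, 2.92 and 29.1 in 8C-E, but 12.97 and 5.32 in 8C and 58.6 and 33.9 in ENR. Muc2 had 26.1 and 55.4 TPM in 8C-VE, 4.99 and 19.6 in 8C-E, and 67.6 and 38.8 in ENR. For both genes the libraries numbered 4 to 6 were the higher ones in 8C-VE and 8C-E and the lower ones in ENR, and in 8C the sets overlapped. Since the labels do not explain the numbers, each comparison was repeated within replicates 1 to 3 and within replicates 4 to 6.

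The fall of Muc2, Fcgbp, Clca1 and Zg16 in 8C against ENR was called in each set, where 5.82% and 2.76% of all genes were called lower: Muc2 at -1.99 (adjusted p = 0.000848) in replicates 1 to 3 and -1.44 (adjusted p = 9.13e-06) in replicates 4 to 6, and Zg16 at -4.16 (adjusted p = 0.00298) and -4.52 (adjusted p = 0.0115). Spdef was called in replicates 4 to 6 (-1.73, adjusted p = 1.06e-05) and not in replicates 1 to 3 (-0.32, adjusted p = 0.174). For both compounds (8C against 8C-VE), none of the 9 was called in replicates 1 to 3 and 5 were called lower in replicates 4 to 6, where the shares of all genes called lower were 2.2% and 2.38%. There, Zg16 gave -2.08 (adjusted p = 0.101) and -4.87 (adjusted p = 0.00811), and Muc2 gave -0.68 (adjusted p = 0.0515) and -1.92 (adjusted p = 8.62e-05). For VPA alone (8C-E against 8C-VE), Muc2, Fcgbp and Clca1 were called in both sets (all genes called lower, 1.54% and 1.25%), Muc2 at -2.20 (adjusted p = 3.7e-06) and -1.45 (adjusted p = 0.00499). Zg16 there was -2.95 (adjusted p = 0.0176) and -2.75 (adjusted p = 0.0837). Spdef was called in replicates 1 to 3 (-1.02, adjusted p = 7.65e-05) and not in replicates 4 to 6 (-0.80, adjusted p = 0.0515). In all, 5 and 3 of the 9 were called lower. For the omission of VPA (8C-V against 8C), Muc2 was called in both sets (1.11, adjusted p = 0.0197 and 1.83, adjusted p = 4.6e-05), in which 1.24% and 2.58% of all genes were called higher, whereas Clca1 and Zg16 were called in replicates 4 to 6 and not in replicates 1 to 3. Clca1 gave 0.25 (adjusted p = 0.713) in replicates 1 to 3 and 4.24 (adjusted p = 0.00658) in replicates 4 to 6, and Zg16 gave 1.596 (adjusted p = 0.223) and 4.82 (adjusted p = 0.0233). Tff3 and Spdef were called in replicates 4 to 6 as well (1.04, adjusted p = 3.03e-05 and 1.36, adjusted p = 0.000716). For the omission of EPZ6438 (8C-E against 8C), replicates 1 to 3 called Muc2 lower, -1.52 (adjusted p = 0.00915), Clca1 lower, -1.82 (adjusted p = 0.0251), and Creb3l1 higher, 1.04 (adjusted p = 0.025). Of all genes, 5.31% were called lower there and 0.797% higher. Replicates 4 to 6 called none of the 9, against 5.84% of all genes, with Clca1 at 2.29 (adjusted p = 0.144).

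**Figure D3:**
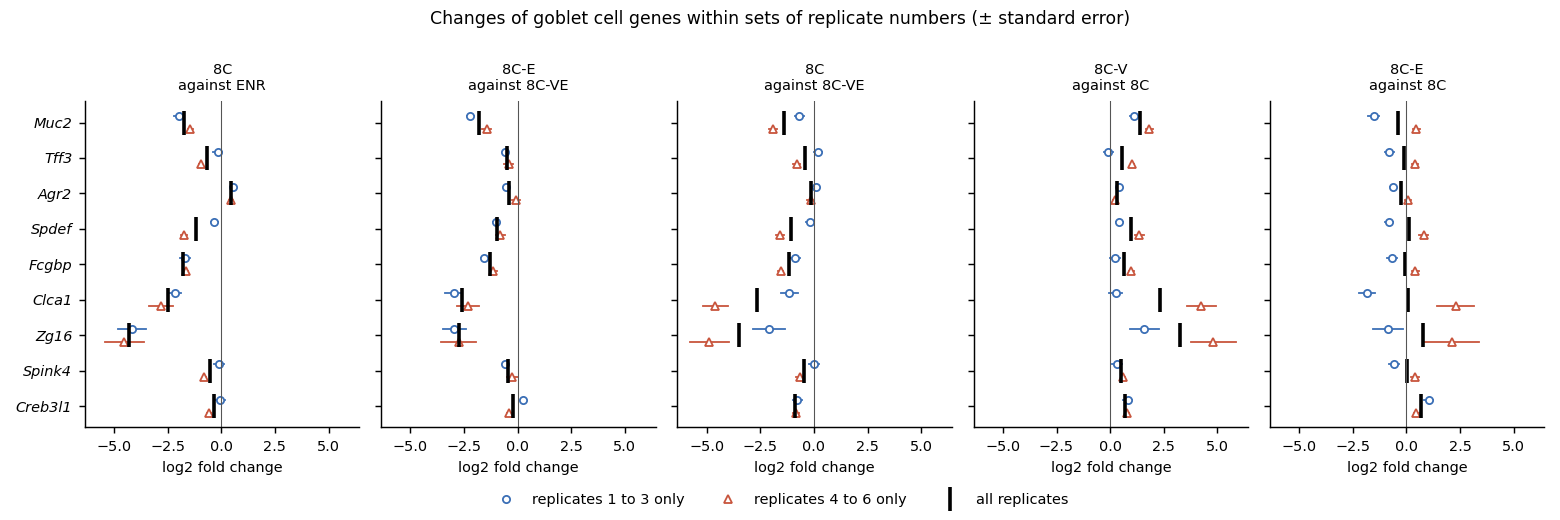
Log2 fold changes of TPM + 1 of the 9 goblet cell genes in 5 comparisons, from replicates 1 to 3 only (circles), replicates 4 to 6 only (triangles) and all replicates (bars); lines are ± 1 standard error. In 8C against ENR both sets lie below 0 for Muc2, Fcgbp, Clca1 and Zg16, and in 8C-E against 8C they lie on opposite sides of 0 for Muc2 and Clca1.

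VPA and EPZ6438 were also added to ENR. None of the 9 genes was called between ENR+VE and ENR, where 8.87% of 12324 genes were called; 1 of the 9 had an unadjusted p under 0.05 against 31.3% of all genes, Clca1, with 82.6, 82.5 and 52.1 TPM in ENR+VE (0.76 ± 0.28, adjusted p = 0.0866). Against replicates 4 to 6 of ENR, where 13.7% of all genes were called, Clca1 was (1.05, adjusted p = 0.00156), and against replicates 1 to 3 it was not (0.27, adjusted p = 0.266). Zg16 had 227, 248 and 182 TPM in ENR+VE (0.38 ± 0.24, adjusted p = 0.33), and Muc2 had 56.9, 67.8 and 31.0 TPM (95% interval -0.83 to 0.56). The Clca1 values of replicates 1 and 2 and the Zg16 value of 248 TPM lay above every ENR library, and the Muc2 value of 31.0 TPM lay below every ENR library. Changes of Tff3, Agr2, Spdef, Fcgbp, Spink4 and Creb3l1 were -0.38 (Spink4) to 0.16 (Agr2). Whether the effect of the compounds differed between the media was tested as an interaction, (8C minus 8C-VE) minus (ENR+VE minus ENR). Zg16 was called, at -3.84 ± 0.82, adjusted p = 0.0212, and it was 1 of 9, against 0.318% of 12591 genes called in that direction (0.58% in either). Its call was lost without any one of the 3 ENR+VE libraries (adjusted p = 0.072 to 0.0957) and among replicates 1 to 3 (-2.06, adjusted p = 0.263). Clca1 just missed the threshold for the adjusted p, at -3.40 ± 0.82, adjusted p = 0.0524, and was called without 8C-VE replicate 1 or 7 or without 8C replicate 2, 3 or 4. Fcgbp was at -1.13 ± 0.32, adjusted p = 0.143 and was called without 8C replicate 3 (-1.27, adjusted p = 0.0362). Muc2 was at -1.28 ± 0.44, adjusted p = 0.353. Tff3, Agr2, Spdef, Spink4 and Creb3l1 were not called, at -1.10 (Spdef) to -0.10 (Spink4). With replicates 4 to 6 of 8C, 8C-VE and ENR, 5 of the 9 were called, all below 0, as were 4.37% of 12547 genes (6.54% in either direction): Zg16 (-5.53, adjusted p = 0.00613), Clca1 (-5.65, adjusted p = 0.00019), Fcgbp (-1.88, adjusted p = 0.000342), Spdef (-1.80, adjusted p = 0.00019) and Muc2 (-2.25, adjusted p = 0.00107). With replicates 1 to 3 none was, against 2.81% of 12517 genes, and Muc2 was at -0.26 (adjusted p = 0.933). With the compounds in both media (8C against ENR+VE), 4 of the 9 were called lower in 8C, against 2.43% of 12856 genes (3.87% in either direction): Zg16 (-4.69 ± 0.70, adjusted p = 0.00134), Clca1 (-3.23 ± 0.55, adjusted p = 0.00348), Fcgbp (-1.76 ± 0.26, adjusted p = 0.00116) and Muc2 (-1.62 ± 0.24, adjusted p = 0.00148). All 4 also held with replicates 1 to 3 of 8C alone (3.94% of all genes called lower), with Zg16 at -4.14 (adjusted p = 0.0104) and Muc2 at -1.57 (adjusted p = 0.0278), and with replicates 4 to 6 (4.1%), with Zg16 at -5.18 (adjusted p = 0.0112) and Muc2 at -1.78 (adjusted p = 0.000794). Spdef was called in the latter (-1.93, adjusted p = 2.87e-05) and not in the former (-0.27, adjusted p = 0.412). With the replicate number as a block, Muc2 (-1.57, adjusted p = 0.143) and Fcgbp (-1.42, adjusted p = 0.146) were not called. Zg16 (-4.14, adjusted p = 0.0273) and Clca1 (-2.44, adjusted p = 0.042) stayed called. The remaining members, Tff3, Agr2, Spdef, Spink4 and Creb3l1, were at -1.18 (Spdef) to 0.31 (Agr2). With Agr2, 5 of the 9 had groups that did not overlap, against 10.4% of genes.

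The single components were removed from 8C in 3 libraries each, and these comparisons share the 7 libraries of 8C. Without Pexmetinib, 3 of the 9 genes were called higher, against 0.334% of 12860 genes (0.482% in either direction). Muc2 had 50.5, 66.9 and 44.6 TPM (1.72 ± 0.20, adjusted p = 0.00187), each above the highest 8C library. Tff3 had 3232, 2602 and 2164 TPM (1.06 ± 0.18, adjusted p = 0.0289) and Spink4 had 3459, 3167 and 2339 TPM (1.00 ± 0.19, adjusted p = 0.0432). Fcgbp had 282, 354 and 270.4 TPM and did not pass the test (1.11 ± 0.23, adjusted p = 0.0572), but did without 8C replicate 3 (1.25, adjusted p = 0.00856). The groups of these 4 genes and of Agr2 did not overlap, against 7.49% of genes. When single libraries were left out, Tff3 stayed called without 8C replicate 2 or 4 and Spink4 without 8C replicate 2, and neither did without any of the other libraries (Tff3 0.91, adjusted p = 0.274, and Spink4 0.89, adjusted p = 0.356, without 8C-Pex replicate 1). With replicates 1 to 3 of 8C alone both were under 2-fold (0.98, adjusted p = 0.0373 and 0.95, adjusted p = 0.0518). Against replicates 4 to 6 of 8C, where 0.532% of all genes were called higher, Tff3 was called (1.01, adjusted p = 0.00785) and Spink4 was not (0.94, adjusted p = 0.0123). Fcgbp and Spdef were called against replicates 4 to 6 (1.34, adjusted p = 0.00148 and 1.39, adjusted p = 0.00924) and not against replicates 1 to 3 (0.77, adjusted p = 0.0729 and -0.27, adjusted p = 0.401). Muc2 held against each set, with 3.38% of all genes called higher against replicates 1 to 3, at 1.68 (adjusted p = 0.00824) and 1.89 (adjusted p = 0.00134). Zg16 spread from 17.7 to 151 TPM without Pexmetinib and did not pass the test (2.53 ± 0.84, adjusted p = 0.238). Agr2, Spdef, Clca1 and Creb3l1 were not called either, at -0.27 (Creb3l1) to 1.80 (Clca1).

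Without EGF, Agr2 was the gene called among the 9, against 0.179% of 12849 genes called lower (0.451% in either direction). It had 297, 364 and 269 TPM, all below the 8C libraries (-1.06 ± 0.12, adjusted p = 0.00325). Its change was under 2-fold without 8C-EGF replicate 3 (-0.96, adjusted p = 0.0335). Muc2, at 6.13, 9.93 and 8.03 TPM (-0.88 ± 0.21, adjusted p = 0.0927), and Fcgbp, at 78.5, 82.8 and 72.3 TPM (-0.83 ± 0.23, adjusted p = 0.146), did not pass the test although their groups did not overlap either; 9.56% of genes did not overlap. Tff3, Spdef, Clca1, Zg16, Spink4 and Creb3l1 had changes of -0.96 (Zg16) to -0.02 (Spink4), none called. Against replicates 1 to 3 of 8C, Spdef (-1.52, adjusted p = 0.00696), Fcgbp (-1.17, adjusted p = 0.0278) and Clca1 (-1.65, adjusted p = 0.0316) were called lower as well, as were 1.72% of all genes. Against replicates 4 to 6 of 8C none of these 3 was called, with Spdef at 0.15 (adjusted p = 0.567), Fcgbp at -0.59 (adjusted p = 0.013) and Clca1 at -0.22 (adjusted p = 0.818). In 8C itself, Spdef averaged 27.8 TPM in replicates 1 to 3 and 8.09 TPM in replicates 4 to 6.

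Without the GSK-3 inhibitor no gene of 12806 was called by limma (0%), and 836 genes (6.53%) had an unadjusted p under 0.05, 4 of the 9 among them. Muc2 had 41.7, 36.3 and 37.1 TPM, above all 8C libraries (1.26 ± 0.18, adjusted p = 0.0976), and it was called against each set of 8C, as were 7.12% and 0.0551% of all genes (1.21, adjusted p = 0.0077 and 1.42, adjusted p = 0.00573); 3.55% of genes had groups that did not overlap, as Muc2 and Agr2 had. The other 8 members were at -0.15 (Creb3l1) to 2.10 (Zg16). Without bFGF none of the 9 was called, 1 gene of 12834 was (0.00779%), and 713 (5.56%) had an unadjusted p under 0.05, with Creb3l1 the member among them (-0.69 ± 0.28, adjusted p = 0.831) and the other 8 at -0.68 (Spdef) to 0.12 (Tff3). Spdef, at 7.36, 9.84 and 8.30 TPM without bFGF, was called against replicates 1 to 3 of 8C (-1.59, adjusted p = 0.00461), where the 8C libraries were those at 24.8 to 33.3 TPM and 2.37% of all genes were called lower, and not against replicates 4 to 6 (0.07, adjusted p = 0.958). Creb3l1 was called lower against replicates 1 to 3 (-1.01, adjusted p = 0.0281) and not against replicates 4 to 6 (-0.19, adjusted p = 0.816).

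Transcription factors of the secretory and goblet lineage were a list of 8 (Atoh1, Gfi1, Klf4, Foxa1, Foxa2, Foxa3, Creb3l4 and Xbp1), all tested. In 8C against ENR, where 3.31% of all genes were called lower, 2 of 8 were, Atoh1 (-1.27 ± 0.20, adjusted p = 7.15e-05) and Creb3l4, a bZIP factor related to Creb3l1 (-1.63 ± 0.25, adjusted p = 6.34e-05), and none higher. The same pair was called lower in 8C than in 8C-VE (1.62% of all genes), Atoh1 by -1.62 ± 0.20, adjusted p = 1.11e-05. Both were called higher in 8C-V than in 8C (1.11% of all genes), Atoh1 by 1.17 ± 0.20, adjusted p = 0.000881. None of the 8 was called in 8C-VE against ENR, 8C-E against 8C-VE or 8C-V against 8C-VE. Atoh1 was the 1 of 8 called higher without Pexmetinib (1.44 ± 0.27, adjusted p = 0.0416), against 0.334% of all genes, and the 1 of 8 called, below 0, in the interaction of medium and compounds (-1.30 ± 0.31, adjusted p = 0.0474), against 0.318%.

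A list held 16 other genes rich in goblet cells. In 8C against ENR 9 of 15 were called lower, as were 3.31% of all genes, and none higher, the 3 largest being the chemokine Ccl6 (-3.23 ± 0.37, adjusted p = 3.78e-06), the kallikrein Klk1 (-3.21 ± 0.19, adjusted p = 1.89e-09) and Rep15, a Rab15 effector (-2.66 ± 0.26, adjusted p = 4.61e-07). The list's median change was -1.60, and that of all genes tested 0.08. Of 15 tested, 4 were called lower in 8C-VE against ENR (2.07% of all genes), 8 lower in 8C against 8C-VE (1.62%), 9 lower in 8C-E against 8C-VE (1.07%) and 7 higher in 8C-V against 8C (1.11%). In 8C-V against 8C-VE 1 was called, Ccl6, higher (1.43 ± 0.23, adjusted p = 0.001), where 2.96% of all genes were. These counts come from libraries shared with the members' comparisons and are not independent of them.

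Genes for mucin glycosylation and for protein folding formed further lists, to be read in 8C against ENR against the 11.9% of all genes called higher and 3.31% called lower. Of 14 glycosylation genes tested in 8C against ENR, 2 were called higher, the core 2 enzyme Gcnt1 (3.01 ± 0.39, adjusted p = 1.16e-05) and the fucosyltransferase Fut2 (2.85 ± 0.21, adjusted p = 2.61e-08), and none lower. Both were called higher in 8C-V than in 8C-VE (2.96% of all genes), Fut2 by 1.34 ± 0.28, adjusted p = 0.00857, and neither was called in 8C-E against 8C-VE. Of 17 folding and transport genes in 8C against ENR, 2 were called higher, Kdelr3, a receptor that returns proteins to the endoplasmic reticulum (1.44 ± 0.11, adjusted p = 2.64e-08), and Fkbp11, a prolyl isomerase (1.18 ± 0.16, adjusted p = 1.51e-05), and 1 lower, Ern2, an unfolded protein sensor of mucous cells (-1.70 ± 0.33, adjusted p = 0.000645). Of the other mucins, 4 were tested in 8C against 8C-VE and 1 was called lower, the membrane mucin Muc3 (-1.56 ± 0.35, adjusted p = 0.00317), against 1.62% of all genes; without Pexmetinib, Muc1 was the 1 of 5 called higher (1.83 ± 0.35, adjusted p = 0.0432), against 0.334%.

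Markers of the other cell types of the organoid epithelium moved between the same conditions. The 8 Paneth markers summed to 1174 to 4784 TPM in 8C, 9899 to 15931 in 8C-VE and 12655 to 15574 in ENR. The 7 enterocyte markers summed to 1540.0 to 3983 TPM in 8C, 1415 to 3723 in 8C-VE and 2151 to 11319 in ENR. The 9 enteroendocrine markers summed to 726 to 2255 TPM in 8C, 626 to 1766 in 8C-VE and 1012 to 1758 in ENR. The 4 stem cell markers summed to 453 to 1483 TPM in 8C, 1409 to 2566 in 8C-VE and 1917 to 3538 in ENR, and the 8C and ENR ranges did not overlap. Of these, 1 of 4 was called lower in 8C against ENR, Olfm4, at a mean of 24.2 TPM in 8C and 2500.5 in ENR. Lgr5 (0.61 ± 0.22, adjusted p = 0.0438) and Smoc2 (0.77 ± 0.28, adjusted p = 0.0405) went the other way by less than 2-fold. Ascl2 did not pass the test (-0.23 ± 0.18, adjusted p = 0.364). In 8C against ENR, 6 of 8 Paneth, 6 of 7 enterocyte and 3 of 4 tuft markers were called lower, 2 enteroendocrine markers were called higher and 1 lower, against 3.31% of all genes called lower and 11.9% called higher, and their part in the goblet cell results was not tested.

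Across the 49 organoid libraries, the genes whose log2(TPM + 1) followed the mean of the 9 members' z-scores best were Ano7 (Pearson's r = 0.87), Ramp1 (0.85), Guca2a (0.85), Tpsg1 (0.84) and Apoa1 (0.82). Within conditions, that is after each condition's mean was removed, Tff3 and Spink4 went together (r = 0.89), as did Clca1 and Zg16 (0.84) and Agr2 and Spink4 (0.81). Creb3l1 ran against Tff3 (-0.64), Clca1 (-0.60) and Spink4 (-0.52) and with Spdef (0.51). The libraries share the sets of replicate numbers described above, so these coefficients describe the 49 libraries and no more.

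In crypts the 9 genes took another course, with a low point for most at day 3 after irradiation. Muc2 had 77.5 and 170.2 TPM in the Normal crypts, 203 and 59.0 at day 1, 167 and 107 at day 2, 32.5 and 24.3 at day 3 and 304 and 369 at day 5. Both day 3 libraries lay below every other Normal and IR library, and both day 5 libraries above. Clca1 had 60.2 and 143 TPM in Normal, 167 and 124 at day 1, 119 and 98.1 at day 2, 13.5 and 15.5 at day 3 and 86.9 and 82.6 at day 5. Fcgbp had 395 and 477 TPM in Normal, 495 and 326 at day 1, 478 and 476 at day 2, 117 and 76.0 at day 3 and 409 and 396 at day 5. These gel proteins shared the low values at day 3. Zg16, in contrast, had 2206 and 2322 TPM in Normal, 3145 and 4757 at day 1 and 4286 and 4909.9 at day 2, all higher than Normal, and then 1479 and 1563 at day 3 and 2123 and 2554 at day 5. Creb3l1 had 4.83 and 8.42 TPM in Normal, 5.52 and 1.97 at day 1, 2.73 and 1.70 at day 2, 0.653 and 0.571 at day 3 and 13.3 and 10.7 at day 5. Its day 3 values were the lowest of any member in any library. Spdef had 9.74 and 17.3 TPM in Normal, 3.87 and 5.59 at day 3 and 23.3 and 29.2 at day 5. Agr2 had 683 and 718 TPM in Normal, 298 and 416 at day 3 and 1336 and 1745 at day 5. Tff3 stayed between 1898 and 5313 TPM and Spink4 between 2094 and 4860.2 TPM over the 18 crypt libraries, the narrowest ranges.

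**Figure D4:**
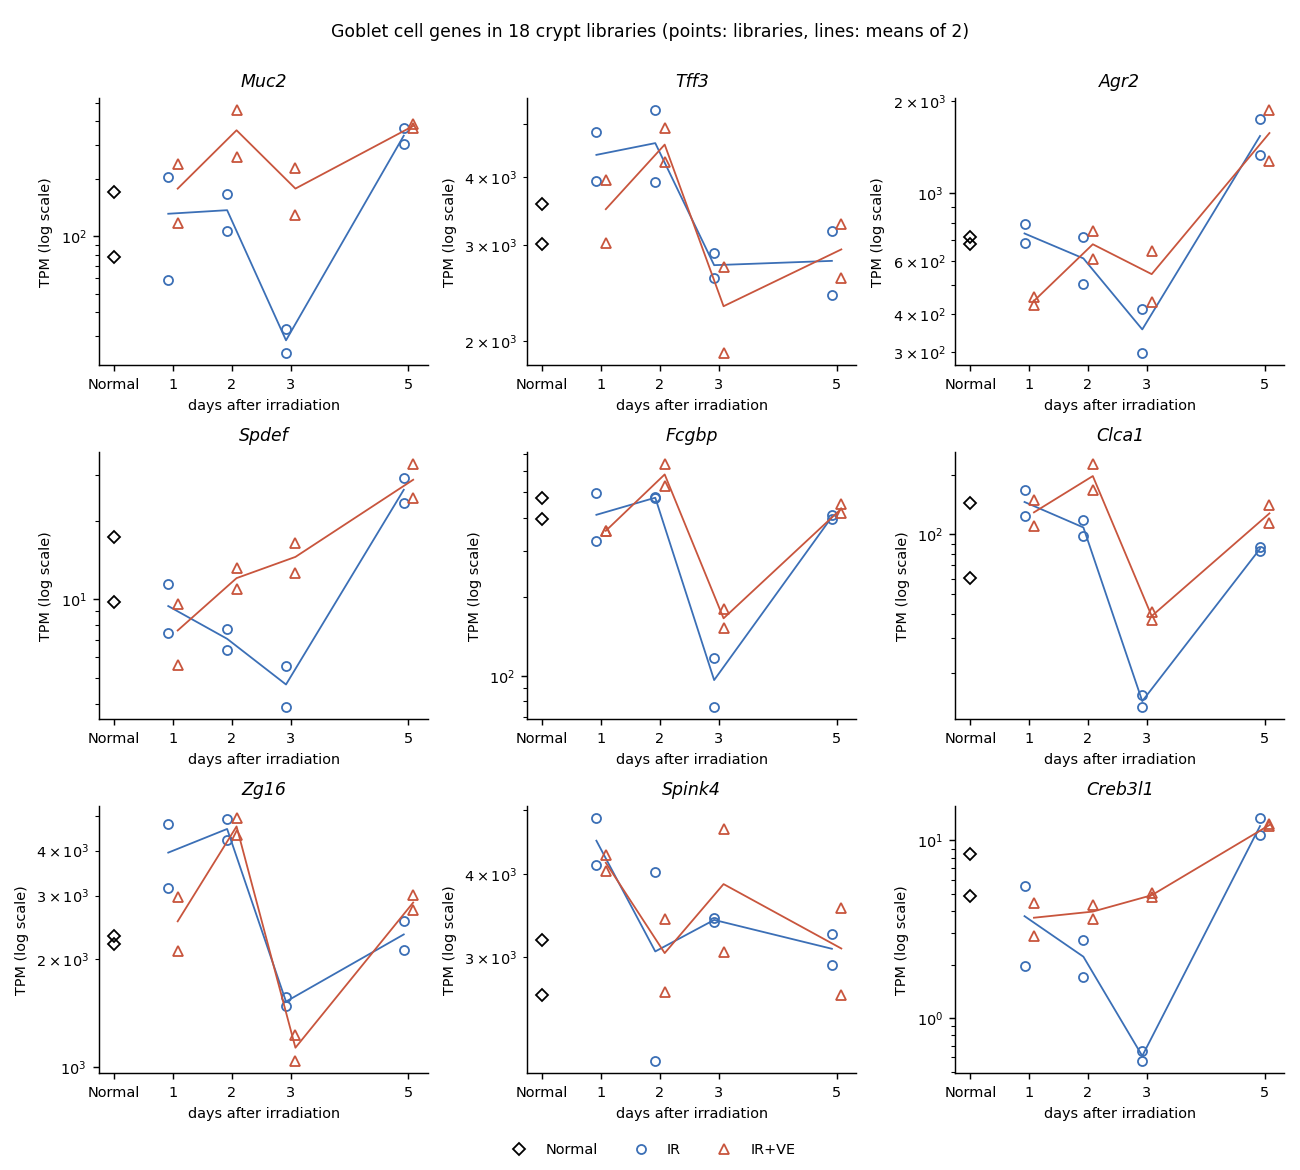
TPM (log scale) of the 9 goblet cell genes in 18 crypt libraries against days after irradiation; diamonds are Normal crypts, circles IR, triangles IR+VE, and lines join means of 2 libraries. Muc2, Fcgbp, Clca1 and Creb3l1 have their lowest IR values at day 3, and Creb3l1 and Spdef lie higher in IR+VE than in IR at that day.

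The median over all genes shifted with irradiation in these values: the median change of the 10802 genes tested was -0.36 at day 1, -0.61 at day 2, -1.03 at day 3 and 0.27 at day 5 against Normal, and the mitochondrial share rose from 12.7% to 18.1% in Normal crypts to 37.9% to 48.4% at day 3. Immune markers moved too, with 8 genes summing to 145 to 244 TPM in Normal crypts and 3.83 to 89.8 TPM in IR crypts. The 4 stem cell markers summed to 223 to 416 TPM in Normal crypts and 14.4 to 17.7 TPM at day 3, and the 5 epithelial markers to 3419.8 to 4320.4 TPM and 2014 to 2963 TPM. At day 3, 4 of 5 epithelial and 2 of 3 stem cell markers tested were called lower, against 51.3% of all genes. The part of these markers in the goblet cell results was not tested. Changes are therefore given as measured and relative to that median. The 4 comparisons share the 2 Normal libraries, and with 2 libraries a group all 9 crypt groups entered one limma fit.

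At day 1 none of the 9 genes was called, against 6.92% of genes, and 3 of the 9 had an unadjusted p under 0.05 against 32.9% of all genes. Groups did not overlap for 3 of the 9 and for 52.1% of all genes. Zg16 was higher by less than 2-fold (0.77 ± 0.23, adjusted p = 0.0408; 1.13 relative to the median). It was called without IR_d1 replicate 1 (1.07, adjusted p = 0.0102), as was Creb3l1 (-1.32, adjusted p = 0.00893), and Clca1 was called without Normal replicate 2 (1.25, adjusted p = 0.0208). The other 8 changes at day 1 were -0.75 (Creb3l1) to 0.63 (Spink4). At day 2 Zg16 was called higher (1.02 ± 0.23, adjusted p = 0.00255; relative 1.63), against 4.55% of genes called higher (30.8% in either direction), and it stayed called with quantile normalization and without the mitochondrial genes (1.46, adjusted p = 9.48e-05). Its change was under 2-fold without Normal replicate 1 (0.98) or IR_d2 replicate 2 (0.92). Creb3l1 was called lower at day 2 (-1.22 ± 0.33, adjusted p = 0.00767), as were 26.2% of genes, and relative to the median it was -0.61. That call was lost with quantile normalization (-0.53, adjusted p = 0.081), after removal of the mitochondrial genes (-0.95, adjusted p = 0.0762) and without Normal replicate 2 (-0.88) or IR_d2 replicate 2 (-0.99). Spdef, at 6.41 and 7.73 TPM, was called lower only without Normal replicate 1 (-1.18, adjusted p = 0.0139; -0.80 ± 0.31, adjusted p = 0.0415 with all libraries). Muc2, Tff3, Agr2, Fcgbp, Clca1 and Spink4 were not called at day 2, with changes of -0.22 (Agr2) to 0.48 (Tff3). Groups did not overlap at day 2 for 4 of the 9 and 77% of all genes.

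At day 3, 5 of the 9 genes were called lower, and so were 51.3% of all genes (53.8% in either direction), so the count does not set goblet cell genes apart. Clca1 changed by -2.60 ± 0.31, adjusted p = 7.04e-06 (relative -1.57). Fcgbp changed by -2.19 ± 0.23, adjusted p = 2.71e-06 (relative -1.16). Creb3l1 changed by -2.20 ± 0.33, adjusted p = 4.73e-05 (relative -1.17), and its mean TPM was 10.8-fold lower, which the added 1 TPM understates. These 3 stayed called with quantile normalization, at -1.53 (adjusted p = 0.0018), -1.35 (adjusted p = 0.00124) and -1.26 (adjusted p = 0.000632), and after removal of the mitochondrial genes. Muc2 (-1.99 ± 0.57, adjusted p = 0.00712; relative -0.96) and Spdef (-1.31 ± 0.31, adjusted p = 0.00162; relative -0.27) did not stay called under either scaling, with -1.36 (adjusted p = 0.0665) and -0.77 (adjusted p = 0.0461) after removal of the mitochondrial genes. Both were also not called without Normal replicate 2 (-1.43, adjusted p = 0.0772, and -0.92, adjusted p = 0.0338). Tff3 (-0.25 ± 0.25, adjusted p = 0.361) and Spink4 (0.24 ± 0.29, adjusted p = 0.463) were not called, and relative to the median they were 0.78 and 1.27. Their changes with the mitochondrial genes removed were 0.40 (adjusted p = 0.0976) and 0.89 (adjusted p = 0.00703), so the sign for Tff3 depends on the scaling. Agr2 fell just short of 2-fold (-0.99 ± 0.26, adjusted p = 0.00341; relative 0.05) and was called without Normal replicate 1 (-1.03, adjusted p = 0.0133) or IR_d3 replicate 2 (-1.23, adjusted p = 0.0036). Zg16 gave -0.57 ± 0.23, adjusted p = 0.0344 (relative 0.46). All 9 genes had groups that did not overlap at day 3, as did 85% of genes.

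At day 5 Agr2 was called higher (1.12 ± 0.26, adjusted p = 0.00591; relative 0.85), the gene called of the 9 against 10.2% of genes called higher (15.8% in either direction). Groups did not overlap for 4 of the 9 and 66.3% of all genes. It stayed called under both scalings (1.17, adjusted p = 0.00169 with quantile normalization), but not without IR_d5 replicate 2 (0.93, adjusted p = 0.069). Muc2 did not pass the test at 1.54 ± 0.57, adjusted p = 0.0634, with Normal libraries that differed widely, and it was called without Normal replicate 2 (2.10, adjusted p = 0.0386). Spdef was higher by less than 2-fold (0.95 ± 0.31, adjusted p = 0.0342) and Creb3l1 was not called (0.81 ± 0.33, adjusted p = 0.0845); without Normal replicate 2 both were called (1.33, adjusted p = 0.0145, and 1.15, adjusted p = 0.0438). Fcgbp, Clca1, Zg16, Tff3 and Spink4 had changes of -0.24 to 0.09, none called.

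VPA and EPZ6438 in irradiated mice were compared with irradiation alone on each day. The median change of all genes was 0.27, 0.42, 0.69 and 0.03 at days 1, 2, 3 and 5. At day 1 none of the 9 was called (1 gene of 10802, 0.00926%, was; 13.2% had an unadjusted p under 0.05, 2 of the 9 among them, and 38.6% did not overlap, 2 of the 9 among them). The 9 changes were -0.73 (Agr2) to 0.60 (Muc2). At day 2 none was called, against 8.38% of genes; 3 of the 9 and 36.7% of all genes had an unadjusted p under 0.05, 5 of the 9 and 71.1% of all genes did not overlap, and Muc2, at 260.1 and 458 TPM, gave 1.36 ± 0.57, adjusted p = 0.106. The other 8 ranged over 0.00 (Tff3) to 0.84 (Clca1). At day 5 none of the 9 was called (2 genes, 0.0185%, were; 1.65% had an unadjusted p under 0.05, none of the 9 among them, and 27.9% did not overlap, 4 of the 9 among them), with Muc2 at 370.1 and 386 TPM (95% interval -1.06 to 1.41) and all 9 changes at -0.01 (Spink4) to 0.58 (Clca1).

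At day 3, 4 of the 9 genes were called higher with the compounds, and so were 31.6% of all genes (31.7% in either direction). Muc2 had 226 and 129 TPM in IR+VE (2.56 ± 0.57, adjusted p = 0.00312; relative 1.87). Creb3l1 had 5.04 and 4.78 TPM (1.87 ± 0.33, adjusted p = 0.000653; relative 1.18). Both were far above the IR libraries of that day, and both stayed called with quantile normalization (2.17, adjusted p = 0.0233 and 1.17, adjusted p = 0.0047). Spdef had 12.6 and 16.4 TPM (1.44 ± 0.31, adjusted p = 0.00186; relative 0.75) and Clca1 had 40.6 and 37.2 TPM (1.36 ± 0.31, adjusted p = 0.00248; relative 0.67). Neither stayed called with quantile normalization (0.55, adjusted p = 0.106 and 0.76, adjusted p = 0.0895). Fcgbp had 179 and 152 TPM and was higher by less than 2-fold (0.80 ± 0.23, adjusted p = 0.00919; relative 0.11), and it was called without IR_d3 replicate 1 (1.11, adjusted p = 0.0104). Zg16 had 1037 and 1226 TPM and was not called (-0.43 ± 0.23, adjusted p = 0.127; relative -1.13). Tff3, Agr2 and Spink4 were not called, at -0.27 (Tff3) to 0.59 (Agr2). Groups did not overlap for 7 of the 9 genes and for 73.1% of all genes. The mitochondrial share was 25.4% to 41.5% in IR+VE and 37.9% to 48.4% in IR at that day, and the 5 epithelial markers summed to 4054 to 4239 TPM and 2014 to 2963 TPM; their part in the result was not tested.

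As a mean over the 4 days, Muc2 was called higher with the compounds (1.18 ± 0.28, adjusted p = 0.00496; relative 0.81), 1 of the 9 against 3.54% of genes called higher (3.55% in either direction). It was not called with quantile normalization (0.92, adjusted p = 0.0554) or without IR_d1 replicate 2 (0.96, under 2-fold). Means of the other 8 were -0.18 (Zg16) to 0.65 (Clca1), none called. The difference between days was tested as such, and none of the 9 passed by limma's F test, where 1.75% of genes did; the lowest adjusted p was 0.0689, for Creb3l1, followed by 0.0812 for Spdef. Thus the calls at day 3 alone do not show that the compounds acted differently on that day.

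**Figure D5:**
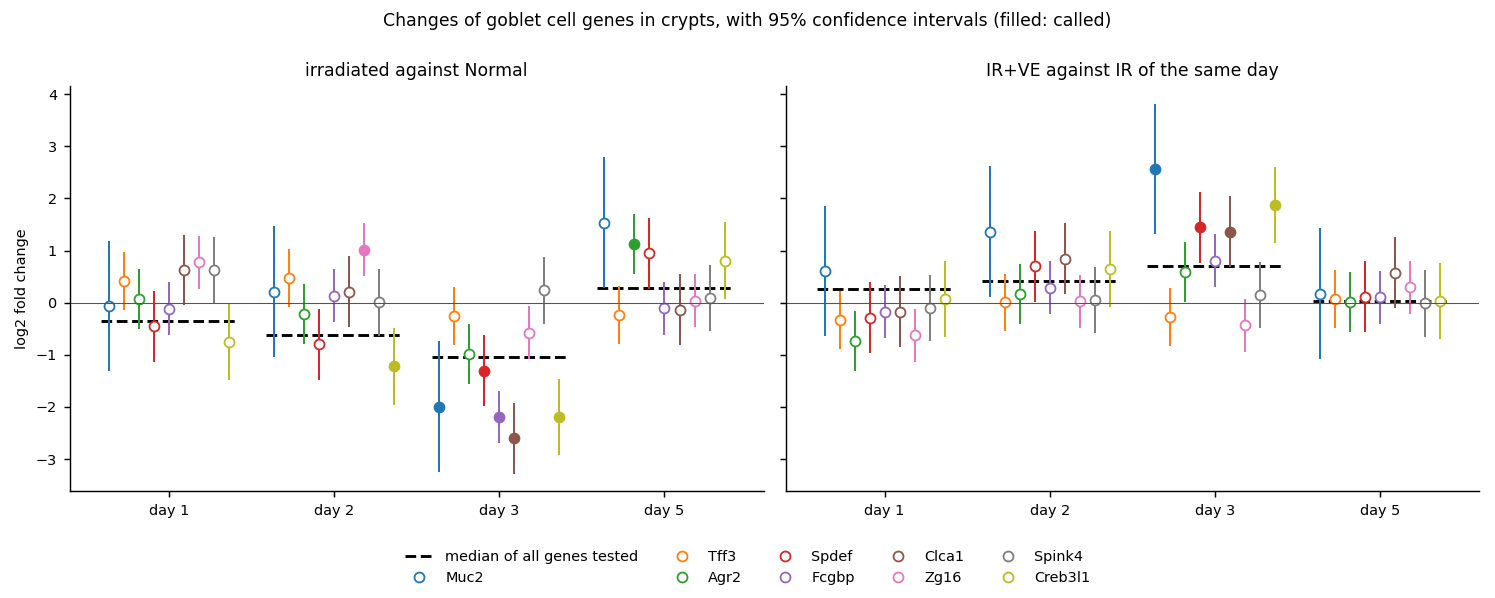
Log2 fold changes of TPM + 1 of the 9 goblet cell genes in crypts by day, irradiated against Normal (left) and IR+VE against IR (right), with 95% confidence intervals from limma; filled points were called and dashed lines are the median of all genes tested. At day 3 the median lies at -1.03 on the left and 0.69 on the right, and Muc2 and Creb3l1 lie farthest above it on the right.

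Lists of related genes are read against the same shares of all genes. At day 3 after irradiation, where 51.3% of all genes were called lower, 5 of 8 lineage factors were: Klf4 (-3.72 ± 0.62, adjusted p = 0.000214), Creb3l4 (-1.60), Xbp1, a factor of the unfolded protein response (-1.46), Atoh1 (-1.34) and Gfi1 (-1.02). Of 17 folding and transport genes 11 were called lower, led by Pdia5 (-2.35 ± 0.22, adjusted p = 1.35e-06), the chaperone Hspa5 (-1.97) and Txndc5 (-1.84). The other goblet cell genes had 8 of 16 lower, led by Capn9 (-3.41 ± 0.43, adjusted p = 1.2e-05), 5 of 13 glycosylation genes were lower and 1 higher, and the other mucins had 4 of 4 lower, led by the membrane mucin Muc4 (-2.99 ± 0.49, adjusted p = 0.000105). The list medians at day 3 were -1.18, -1.21, -1.05, -0.84 and -2.28 for the lineage factors, folding genes, other goblet cell genes, glycosylation genes and other mucins, and that of all genes -1.03. At day 2 the 1 of 8 lineage factors called lower, against 26.2% of all genes, was Creb3l4 (-1.25 ± 0.24, adjusted p = 0.000977). With the compounds at day 3, where 31.6% of all genes were called higher, 2 of 8 lineage factors were, Klf4 (2.93 ± 0.62, adjusted p = 0.00246) and Foxa1 (1.90 ± 0.35, adjusted p = 0.000797), as were 4 of 17 folding genes, led by Ern2 (1.66 ± 0.40, adjusted p = 0.00353), 4 of 13 glycosylation genes and 4 of 16 other goblet cell genes. Of the other mucins 3 of 4 were called higher: Muc3a (2.47 ± 0.48, adjusted p = 0.00114), Muc4 (2.05 ± 0.49, adjusted p = 0.00356) and Muc13 (1.602 ± 0.24, adjusted p = 0.000309). Over the 4 days Klf4 was the 1 of 8 lineage factors called higher with the compounds (1.32 ± 0.31, adjusted p = 0.00433), against 3.54% of all genes. At day 5 after irradiation 6 of 13 glycosylation genes were called higher, against 10.2% of all genes, led by Fut2 (4.81 ± 0.55, adjusted p = 4.95e-05) and Gcnt3 (2.55 ± 0.26, adjusted p = 1.1e-05), and of the other goblet cell genes Retnlb, a goblet cell protein that acts on bacteria, rose most (4.50 ± 0.85, adjusted p = 0.00302). Across the 18 crypt libraries genes most like the members' mean z-score included Copz1 (Pearson's r = 0.91), Vps18 (0.91), Abraxas2 (0.91) and Capn9 (0.90), in libraries that share the shift of the median over all genes described above.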

How the data were processed

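RNA was extracted (RNeasy), and libraries were made with an NEBNext Ultra kit and sequenced paired-end. The submitters' processing notes name Trimmomatic 0.39, STAR 2.7.3a, featureCounts and mm10; whether counting used strand is not given in the sources used here. The deposited values are TPM per gene, made by the authors from gene counts, and every column was matched to a sample by its title, with 0 columns left unused.

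Tests were made with limma 3.58.1 (R 4.3.3; lmFit, then eBayes with trend and robust) on log2(TPM + 1), keeping genes that averaged 1 TPM or more in the libraries compared (for crypts, in all crypt libraries). P-values were adjusted by Benjamini-Hochberg over all genes tested, and calls needed an adjusted p below 0.05 with at least a 2-fold change. Organoid fits held only the groups compared, and crypt comparisons came from one fit of 9 groups. Intervals are 95%. The procedure was tested on simulated data. No library duplicated another. TPM keeps no depth, so the precision that depth gives is unknown. Transcripts were compared with BLAST+ 2.17.0, and figures were drawn with matplotlib 3.10.9 (Python 3.11.15, pandas 2.3.3).

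The members and gene lists were chosen with earlier results of these data known. All 9 members are covered in every comparison, some of those not called by the range of their changes, called lineage factors are named in full, and of the other lists at most the 3 called genes with the largest change are named. As genes of like pattern, the 5 best by Pearson's r were taken, predicted genes left out; 1 of those in crypts is not reported here. Conditions' replicate numbers were taken as pairing samples where every same-numbered pair of deviations from the group mean correlated above 0.1 over 3 or more pairs. This held for 8C-VE against ENR (mean r = 0.46), 8C-E against 8C-VE (0.73), 8C-V against 8C-VE (0.72) and 8C-V against 8C (0.42), and comes from the data, not the labels. Alternatives were a pseudocount of 0.1, quantile normalization, removal of mitochondrial genes, a filter at a mean of 5 TPM, no filter, no fold threshold, the replicate block, other sets of groups in the fit, replicates 1 to 3 or 4 to 6 only, and each library left out.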

Additional observations from a re-analysis of the deposited data

Results flagged for a closer look

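In the 7 ENR libraries, Creb3l1 stood at 91.0 TPM in replicate 7, and the next highest library was at 57.8 TPM. The gap was 0.573 of the group's range, above Dixon's 95% critical value for 7 libraries. Of 45 pairs of gene and organoid group examined in this way, this was the 1 that passed, and chance passes about 1 in 20. Without it the change of Creb3l1 in 8C against ENR stayed uncalled.

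The effect of VPA and EPZ6438 on Zg16 was called different between the 8C base and ENR, with an interaction of -3.84 on the log2 scale (adjusted p = 0.0212). Zg16 was lower with the compounds in the 8C base and was not called different from ENR when they were added to ENR. The interaction missed the threshold without any one of the 3 ENR+VE libraries (adjusted p = 0.072 to 0.0957). It was not called with replicates 1 to 3 of the other conditions (-2.06, adjusted p = 0.263) and was with replicates 4 to 6 (-5.53, adjusted p = 0.00613), so it depends on the set.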

How the results depend on the processing

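Depth is unknown in TPM, and Creb3l1 in IR crypts at day 3 was below 1 TPM, where the added 1 TPM dampens changes. Of 2034 member values under alternatives other than leaving out a library, 1940 stayed on the same side of the threshold, 35 lost a call, 57 gained one and 2 were called with the opposite sign. Of the 1940, 87 that were called under neither setting changed sign. The 2 called with the opposite sign were Clca1 within replicates 1 to 3, at -1.01 in 8C-VE against ENR and -1.82 in 8C-E against 8C. The cause of these shifts was not tested.

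The number of members called moved by more than 1.5 times as follows, and smaller moves are left out. With no minimum change it was 8 in 8C against ENR, 2 in 8C-VE against ENR, 1 in 8C-V against 8C-VE, 6 in 8C-V against 8C, 1 at day 1 and 2 at day 5 of IR against Normal, and 4 for the mean of IR+VE against IR. Within replicates 1 to 3 it was 3 in 8C-VE against ENR, 0 in 8C against 8C-VE, 1 in 8C-V against 8C, 3 in 8C-E against 8C, 3 in the VPA by EPZ6438 interaction, 0 in the VE by medium interaction, 4 without EGF, 1 without Pexmetinib, 1 without the GSK-3 inhibitor and 2 without bFGF. Within replicates 4 to 6 it was 1 in 8C-VE against ENR, 5 in 8C-V against 8C, 1 in ENR+VE against ENR, 5 in the VE by medium interaction and 1 without the GSK-3 inhibitor. Conditions with 3 libraries entered whole in both sets. Quantile normalization gave 1 without the GSK-3 inhibitor, 1 at day 2 and 3 at day 3 of IR against Normal, 2 at day 3 of IR+VE against IR and 0 for its mean. Removal of mitochondrial genes gave 1, 1 and 3 at days 1, 2 and 3 of IR against Normal. All 10 organoid groups in the fit gave 2 in the VE by medium interaction. A pseudocount of 0.1 gave 2 at day 5 of IR against Normal and 1 in the test of VE by day. With only the groups compared in the fit, it was 2 at day 5 of IR against Normal and 1 at day 2 of IR+VE against IR. Leaving out replicate 7, chosen after seeing the data, kept 35 of 36 member values as they were.

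With the replicate number as a block, the number called was 2 in 8C against ENR+VE, 0 without EGF, 1 without Pexmetinib, 1 without the GSK-3 inhibitor, 1 without bFGF and 1 in VE by day, and 11 neighbouring pairs of conditions differed. In these the labels share only a number. Where the numbers paired the samples, the block changed no call but that of Clca1 in 8C-V against 8C (2.25, adjusted p = 0.0572). Every sample correlated best with its own number in 8C-E against 8C-VE and 8C-V against 8C-VE, a hint from the data.

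Leaving out each library in turn gave 4 to 5 members called in 8C against ENR, 0 to 1 in 8C-VE against ENR, 4 to 6 in 8C against 8C-VE, 3 to 4 in 8C-E against 8C-VE, 0 in 8C-V against 8C-VE, 2 to 4 in 8C-V against 8C, 0 in 8C-E against 8C, 0 in the VPA by EPZ6438 interaction and in ENR+VE against ENR, 4 in 8C against ENR+VE, 0 to 3 in the VE by medium interaction, 0 to 1 without EGF, 1 to 3 without Pexmetinib, and 0 without the GSK-3 inhibitor or bFGF. In crypts it gave 0 to 2, 0 to 2, 3 to 6 and 0 to 4 at days 1, 2, 3 and 5 of IR against Normal, 0, 0, 4 to 5 and 0 on these days of IR+VE against IR, 0 to 1 for its mean and 0 to 3 for VE by day, with 1 to 3 differing neighbours in the order of conditions. A crypt group left with 1 library is assumed to vary like the others.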
